A study of Mus musculus with 2 samples.

Results

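The cells described here are regulatory T cells chosen by a marker gate in 2 single-cell RNA libraries of mouse colon. A barcode (the tag shared by all reads of one cell) was a member when it held at least 1000 UMIs (unique molecular identifiers, one per captured RNA molecule), at least 1 UMI of the CD3 genes Cd3d, Cd3e and Cd3g together, at least 1 UMI of Foxp3, no UMI of Cd8b1, and fewer than 20 UMIs per 10000 of the macrophage complement genes C1qa, C1qb and C1qc. Of 13973 barcodes with at least 1000 UMIs, 238 met the gate, 105 in the library labelled KO and 133 in the library labelled WT. Because Foxp3, CD3, Cd8b1 and C1q counts chose the members, their values are given as a description only.

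Regulatory T cells are CD4 T cells that restrain other immune cells. FOXP3, a forkhead transcription factor, fixes their identity, and they act through CTLA-4, which takes costimulatory ligands off antigen-presenting cells, through the high-affinity IL-2 receptor chain CD25 (Il2ra), which consumes IL-2, and through cytokines such as IL-10 and TGF-beta. In mice, RUNX proteins pair with their partner CBF-beta, bind the Foxp3 locus and help keep the gene expressed. RUNX3 itself is best known for directing CD8 T cells and for shaping cytotoxic lymphocytes. In tumours, regulatory T cells often carry an activated programme with KLRG1, amphiregulin (Areg) and the TNF receptors OX40 (Tnfrsf4), GITR (Tnfrsf18) and 4-1BB (Tnfrsf9).

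The series asked how RUNX3 acts on immune infiltration in colorectal cancer, using mice that carried a tumour model. The first library carries the genotype RUNX3 ko and the second the genotype RUNX3 wt, and both are labelled colon. The sources used here do not give the tumour model, how many animals entered each library with their age and sex, or which part of Runx3 was deleted. With 1 library for each genotype there is no replicate and no test: intervals cover counting error at 95% confidence only, and a difference between the libraries is a difference between these 2 libraries.

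The library labelled KO held 6573 barcodes with a median of 8074 UMIs, and the library labelled WT 8800 barcodes with a median of 8559.5. The sexes of the libraries did not match. By UMIs of Xist, transcribed from the inactive X chromosome of females, and of Y-linked genes, the members labelled KO fell into 47 female-type, 28 male-type, 20 carrying both and 10 carrying neither, whereas the members labelled WT were 111 male-type and 22 carrying neither. The members that carried both were deep, with a median of 15562.5 UMIs. The libraries shared 17 barcode sequences in all and 0 among members. Sex and genotype therefore cannot be told apart between the full libraries, and log2 ratios among male-type members (28 labelled KO, 111 labelled WT) are given beside many of the differences.

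The gene behind the genotype was measured first. Runx3 (ENSMUSG00000070691, GRCm38 chr4:135120652-135177990, plus strand) reached 164 CPM (UMIs scaled to a common library total, counts per 1000000; interval 139 to 192) in the members labelled KO, against 169 CPM (141 to 199) in the members labelled WT. These intervals overlap. Among members without a UMI of the macrophage receptors Csf1r, Adgre1 and Fcgr1 they did not: Runx3 had 24 UMIs, 82.5 CPM (52.9 to 123), in the library labelled KO and 76 UMIs, 167 CPM (131 to 209), in the library labelled WT, a log2 ratio of -0.93, while among male-type members the ratio was 0.22. Runx3 UMIs were present in both libraries in every class of cell measured. In CD8 T cells Runx3 stood at 488 CPM in the library labelled KO and 517 CPM in the library labelled WT, and in Ncr1-positive barcodes without CD3 at 802 CPM (KO) and 676 CPM (WT). UMIs outside a deleted part would be counted in a knockout too, so Runx3 counts do not check the label, and the text speaks of the libraries by their labels, KO and WT in brackets included. The partners stood close to level among members: Runx1 had 822 CPM in the library labelled KO and 801 CPM in the library labelled WT, and Cbfb, which encodes CBF-beta, 110 CPM (KO) and 102 CPM (WT). Runx2, a RUNX factor best known for bone, had 614 CPM against 946 CPM, a log2 ratio of -0.62 that was 0.07 among male-type members and -0.21 among members without macrophage receptor UMIs. All log2 ratios are taken after adding 10 CPM to both sides, which understates changes of low genes.

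The Runx3 promoter is printed here with those of Il2ra and Izumo1r, both at least 2 times higher in members than in conventional CD4 cells, since all hold a letter match to the RUNX core motif. Sequences are from RefSeq (build GRCm38.p6), 250 bases before to 50 after the transcription start, on the strand of the gene; Runx3 is the first of 2 listed promoters (chr4:135120395-135120694, plus strand), Il2ra lies at chr2:11642542-11642841 on the plus strand and Izumo1r at chr9:14903718-14904017 on the minus strand. Capitals mark TGTGGT or TGCGGT read on either strand (ACCACA or ACCGCA as printed).
Runx3: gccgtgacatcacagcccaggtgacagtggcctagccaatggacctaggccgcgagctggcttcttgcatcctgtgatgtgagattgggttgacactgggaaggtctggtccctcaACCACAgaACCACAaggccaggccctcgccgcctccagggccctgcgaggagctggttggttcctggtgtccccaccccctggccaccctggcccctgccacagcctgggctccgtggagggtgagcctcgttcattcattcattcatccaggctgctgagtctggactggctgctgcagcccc
Il2ra: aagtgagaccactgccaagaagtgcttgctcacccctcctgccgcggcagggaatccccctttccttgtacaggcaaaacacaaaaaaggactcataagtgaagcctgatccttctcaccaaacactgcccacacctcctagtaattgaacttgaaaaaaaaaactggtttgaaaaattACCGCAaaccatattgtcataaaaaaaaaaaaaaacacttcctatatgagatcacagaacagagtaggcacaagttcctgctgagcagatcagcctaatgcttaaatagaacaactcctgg
Izumo1r: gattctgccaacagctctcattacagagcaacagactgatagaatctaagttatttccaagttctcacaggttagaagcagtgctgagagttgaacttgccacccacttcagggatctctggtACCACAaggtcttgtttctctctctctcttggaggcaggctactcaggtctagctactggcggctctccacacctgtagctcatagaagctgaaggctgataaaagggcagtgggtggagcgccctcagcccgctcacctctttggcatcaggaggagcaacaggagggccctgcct
Counted from the transcription start, the matches lie at -134 and -126 in Runx3, at -71 in Il2ra and at -127 in Izumo1r. Either motif was found in 22.4% of the 32851 listed mouse promoters. Neither of the 2 listed Foxp3 promoters holds one. A match describes letters and says nothing of binding.

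Nearly all members carried RNA of Ctla4 and Ikzf2 beside the Foxp3 that the gate requires, while Cd4 was found in fewer. A Cd4 UMI, which the gate does not ask, was present in 61.9% of the members labelled KO and 36.1% of those labelled WT. Cd4 stood at 121 CPM (KO) and 87.4 CPM (WT). Without macrophage receptor UMIs it had 199 CPM (KO) and 92.1 CPM (WT), a log2 ratio of 1.04. Foxp3 (ENSMUSG00000039521, chrX:7573644-7595245) reached 287 CPM (254 to 324) in the members labelled KO and 375 CPM (333 to 419) in the members labelled WT. Of the members labelled KO, 31 had 1 Foxp3 UMI, 29 had 2 and 45 had 3 or more. Of the members labelled WT, 48 had 1, 43 had 2 and 42 had 3 or more. Ctla4 was detected in 99.0% of the members labelled KO and 98.5% of those labelled WT, while in conventional CD4 T cells (CD3-positive, Cd4-positive, without Foxp3 and Cd8b1) it was detected in 85.6% in both libraries. Ikzf2, which encodes HELIOS, a factor that stabilises regulatory T cells, was detected in 97.1% of the members labelled KO and 98.5% of those labelled WT, and in 46.4% and 44.4% of conventional CD4 cells. The median depth of members was 4767 UMIs in the library labelled KO and 4186 in the library labelled WT, and that of conventional CD4 cells 4585 (KO) and 3551.5 (WT). The deepest member had 100077 UMIs (KO) and 32111 UMIs (WT), which is 10.5% and 4.01% of the members' UMIs. Summed levels weigh such barcodes most. With every member weighted alike, Foxp3 had a mean of 519 CPM in both libraries.

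Levels gave the same order of classes in both libraries. Ikzf2 reached 2263 CPM in the members labelled KO and 594 CPM in conventional CD4 cells of that library, and 3587 CPM against 1096 CPM in the library labelled WT. Il2ra reached 557 CPM in members against 207 CPM in conventional CD4 cells of the library labelled KO, and 800 CPM against 316 CPM in the library labelled WT. Ctla4 reached 1441 against 794 CPM in the library labelled KO, and 1836 against 845 CPM in the library labelled WT. For each of these 3 genes, members stood highest in both libraries, conventional CD4 cells lower, and CD8 and Ncr1-positive cells lower still or, for Ikzf2 of the library labelled KO, at the level of CD8 cells within counting error (594 CPM in conventional CD4 and 569 CPM in CD8 cells). Macrophage-type barcodes (C1q at or above the limit, no CD3) were the lowest class, at most 19.8 CPM of Ikzf2.

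**Figure D1:**
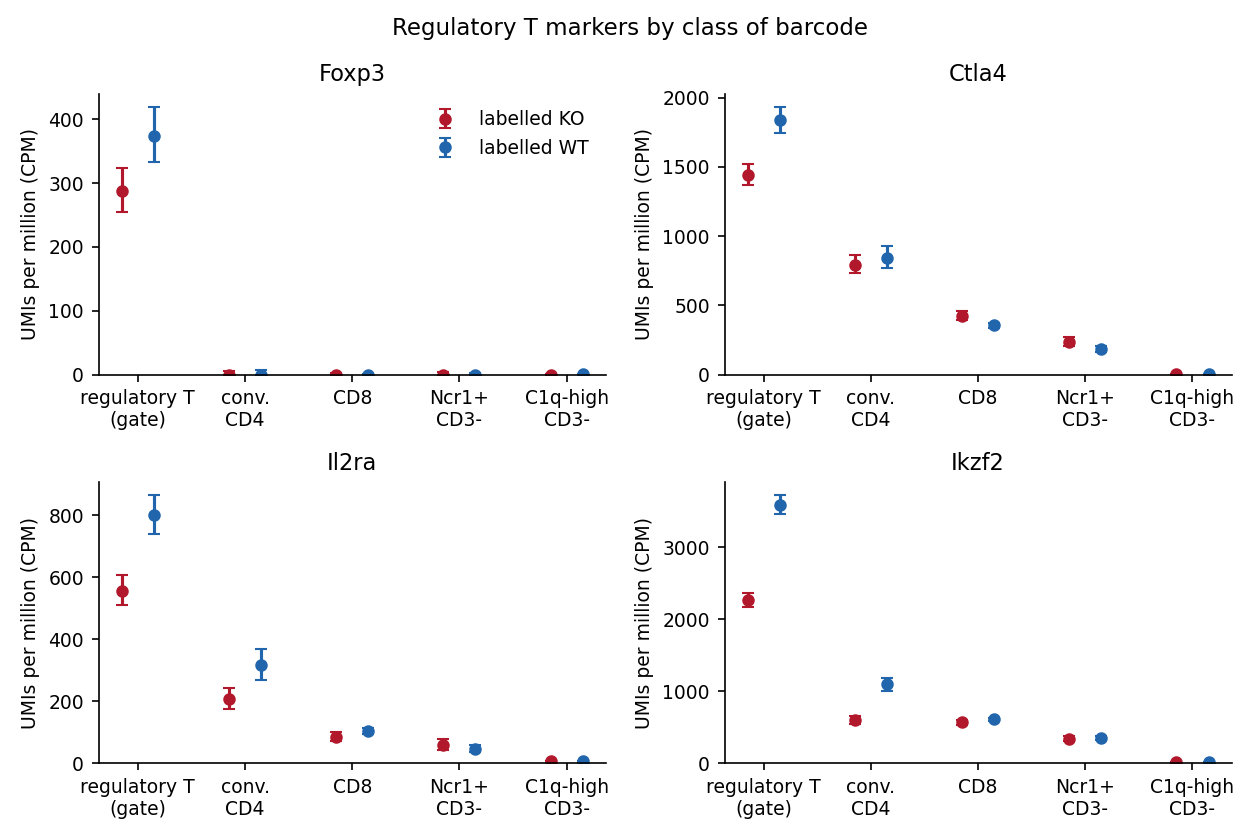
Foxp3, Ctla4, Il2ra and Ikzf2 in CPM (y axis, linear from 0) by class of barcode (x axis), with the library labelled KO in red and the library labelled WT in blue; bars are exact Poisson intervals at 95%, which cover counting error only. Members are highest for all 4 genes; Foxp3 is 0 in conventional CD4 and CD8 cells because their gates require it.

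Barcodes at the edges of the gate were also examined. Members with a single Foxp3 UMI had 3332 CPM of Ikzf2 in the library labelled KO and 3508 CPM in the library labelled WT, well above the 594 CPM (KO) and 1096 CPM (WT) of conventional CD4 cells. Their Tnfsf8, the CD30 ligand carried by activated helper cells, was 5.76 CPM in the library labelled KO and 23.1 CPM in the library labelled WT, whereas conventional CD4 cells had 741 CPM (KO) and 988 CPM (WT). The Ikzf2 and Tnfsf8 levels of these barcodes lay on the members' side. They are themselves members, and Tnfsf8 was picked from the comparison of all members with conventional CD4 cells, so these levels do not check the gate. Foxp3 UMIs in macrophage-type barcodes without CD3 were rare, in 0.244% (7 of 2868) in the library labelled KO and 0.341% (16 of 4687) in the library labelled WT, at median depths of 10988.5 UMIs (KO) and 9473 UMIs (WT). They were more frequent in CD3-positive, C1q-low barcodes with Cd8b1. There 5.43% (10 of 184) labelled KO and 2.11% (14 of 664) labelled WT held one, a ratio of 2.58 (1.02 to 6.24). Median depths of these barcodes were 7343 UMIs (KO) and 5142 UMIs (WT). How many members hold a stray Foxp3 UMI was not tested. At the C1q limit, the highest members stood at 19.3 per 10000 in the library labelled KO and 19.6 in the library labelled WT, and the lowest barcodes left out at 20.02 (KO) and 20.33 (WT). The C1q limit removed 75 Foxp3- and CD3-positive barcodes in the library labelled KO and 100 in the library labelled WT, with 150 CPM (KO) and 136 CPM (WT) of Foxp3 and medians of 17616 UMIs (KO) and 14580 UMIs (WT).

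Macrophage RNA was present in members of both libraries below that limit. All 12 genes of a macrophage marker list had UMIs in members, summing to 2899 CPM in the library labelled KO and 4899 CPM in the library labelled WT, against 3538 CPM (KO) and 3292 CPM (WT) in conventional CD4 cells and 25146 CPM (KO) and 29422 CPM (WT) in macrophage-type barcodes. A UMI of Csf1r, Adgre1 or Fcgr1, receptors of macrophages, was found in 42 of the 105 members labelled KO, which held 69.4% of their UMIs, and in 37 of the 133 members labelled WT, which held 43.1%. Summed levels of members labelled KO therefore come mainly from barcodes with such UMIs, and values for the 63 members labelled KO and 96 labelled WT without them stand beside many of the differences given further on; that split was chosen after the data were seen. Over all members, other cell types left less. Natural killer markers summed to 84.2 CPM in the members labelled KO and 24.97 CPM in those labelled WT. Dendritic markers summed to 239 CPM (KO) and 343 CPM (WT), with UMIs of 7 of the 9 markers and with Xcr1 and Siglech at 0. Members without macrophage receptor UMIs still held unequal dendritic RNA. Flt3 had 1 UMI (KO) and 20 UMIs (WT) there, Clec9a 0 and 9, and Cd209a 0 and 13. Of the 2 genes of the list measured there, 0 were higher and 1 lower (Ccr7). B and plasma cell markers summed to 1164 CPM in the members labelled KO and 167 CPM in those labelled WT, and 1 barcode labelled KO reached 47504 CPM of them. Members without macrophage receptor UMIs held such RNA too. Jchain, a gene of that list, had 972 UMIs (3341 CPM) there in the library labelled KO, in 1.59% of these members, and 0 in the library labelled WT. The part of these cell types in the results was not tested.

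Regulatory T cells took a larger share of T cells in the library labelled KO. They made up 17.4% of CD3-positive, C1q-low barcodes there (105 of 604; exact interval 14.4 to 20.6%), against 9.85% in the library labelled WT (133 of 1350; 8.31 to 11.6%), a ratio of 1.76 (1.35 to 2.30). Among all barcodes with at least 1000 UMIs the shares were 1.96% (1.61 to 2.37%) in the library labelled KO and 1.54% (1.29 to 1.83%) in the library labelled WT, a ratio of 1.27 whose interval, 0.974 to 1.65, includes 1. The difference was thus seen among T cells and lay within counting error among all cells.

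The other T cell classes differed in opposite directions. Conventional CD4 cells made up 16.1% of CD3-positive, C1q-low barcodes in the library labelled KO and 6.67% in the library labelled WT, and CD8 cells 28.8% and 48.1%. Per 100 CD8 cells there were 60.3 regulatory T cells in the library labelled KO and 20.5 in the library labelled WT, a ratio of 2.95 (2.26 to 3.84). Per 100 conventional CD4 cells there were 108 in the library labelled KO and 148 in the library labelled WT, a ratio of 0.733 (0.562 to 0.953). Relative to CD8 cells the members were more frequent in the library labelled KO, and relative to conventional CD4 cells less frequent. Because such shares sum to a whole, more cells of one class and fewer of another cannot be told apart.

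Depth and sex type bear on these shares. After every barcode was thinned to 1000 UMIs, members were 7.53% (5.21 to 10.5%) of T cell barcodes in the library labelled KO and 4.48% (3.32 to 5.89%) in the library labelled WT, a ratio of 1.68. Among male-type barcodes the shares were 19.2% (28 of 146) in the library labelled KO and 10.3% (111 of 1073) in the library labelled WT. Female-type barcodes labelled KO had 14.2% (47 of 332). Within the male type the ratio was 1.85, as large as between the full libraries. Over all alternatives the share of T cells kept its direction, with ratios of 1.44 to 1.95.

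**Figure D2:**
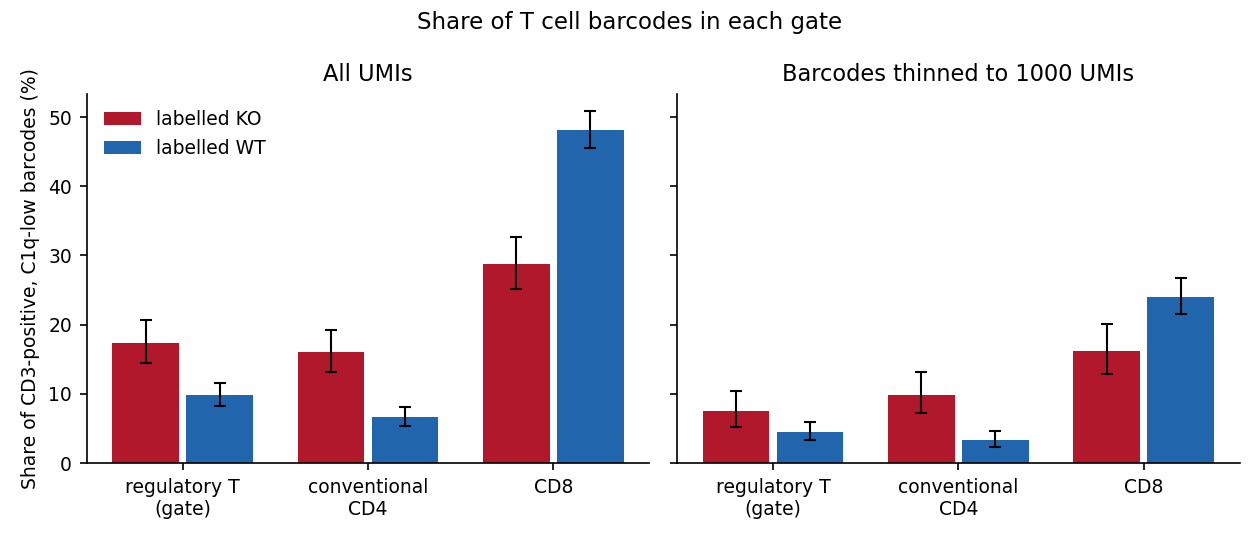
Share of CD3-positive, C1q-low barcodes (y axis, percent) that met the regulatory T, conventional CD4 or CD8 gate, with the library labelled KO in red and the library labelled WT in blue, for all UMIs (left) and after thinning to 1000 UMIs (right); bars are exact binomial intervals at 95%. Members stand at 17.4% in the library labelled KO and 9.85% in the library labelled WT, conventional CD4 cells differ in the same direction and CD8 cells in the opposite one.

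Compared with conventional CD4 cells of their own library, members showed a compact set of higher genes and a larger set of lower ones. Of 7270 genes tested, 40 (0.55%) were at least 2 times higher in both libraries and 71 (0.977%) at least 2 times lower in both, and of these Foxp3 and Cd4 are fixed by the gates. The regulatory T identity list had 5 of 18 measured genes past the higher threshold (Il2ra, Ikzf2, Ikzf4, Lrrc32 and Izumo1r) and 0 past the lower one, and 15 of 18 were above conventional CD4 cells in both libraries. Its median log2 ratio was 0.71 in the library labelled KO and 0.64 in the library labelled WT, beside 0.01 (KO) and 0.03 (WT) over all genes tested.

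The receptors and enzymes of the higher set name several known functions. Klrg1, an inhibitory receptor of terminally differentiated lymphocytes, had 175 CPM in members and 18.1 CPM in conventional CD4 cells of the library labelled KO, and 248 against 62.8 CPM in the library labelled WT. Areg, which encodes the tissue-repair growth factor amphiregulin, had 401 against 68.1 CPM in the library labelled KO and 376 against 97.1 CPM in the library labelled WT. Izumo1r, also called folate receptor 4 and a surface marker of regulatory T cells, had 157 against 45.9 CPM in the library labelled KO and 263 against 87.5 CPM in the library labelled WT. In each of these 3 genes members exceeded conventional CD4 cells by 2 times or more in either library.

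Genes that help release active TGF-beta were in the same set. Lrrc32, which encodes GARP, the protein that holds latent TGF-beta on the cell surface, had 50.5 CPM in members against 9.73 CPM in conventional CD4 cells of the library labelled KO, and 81.1 against 11.4 CPM in the library labelled WT. Itgb8, the beta chain of the integrin that frees TGF-beta from its latent complex, had 215 against 65.4 CPM in the library labelled KO, and 267 against 40.0 CPM in the library labelled WT. Tgfb1 itself differed little, at 278 against 250 CPM in the library labelled KO and 300 against 249 CPM in the library labelled WT. Furin, a protease that processes the TGF-beta precursor, was among the lower genes. In the TGF-beta list as a whole, 2 of 13 measured genes passed the higher threshold and 1 the lower.

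Other higher genes were less tied to regulatory T cells. Gzmb, the granule protease granzyme B, had 285 against 122 CPM in the library labelled KO and 288 against 108 CPM in the library labelled WT. Cd27 and Tnfrsf8 (CD30), both TNF receptors, passed the threshold, as did the interferon-inducible Gbp5 and Isg20. Nckap5 had 110 against 19.5 CPM in the library labelled KO and 245 against 49.5 CPM in the library labelled WT. Neb, which encodes the muscle filament protein nebulin, had 168 against 45.9 CPM (KO) and 179 against 45.7 CPM (WT), nearly the same level in both libraries. Frmd5, a FERM-domain protein, had 471 against 136 CPM in the library labelled KO and 212 against 51.4 CPM in the library labelled WT. Dscam, Rapsn, Arl5a, Cep112 and Phlpp1 completed the 15 highest, with log2 ratios of 1.24 to 1.48 in the library labelled KO and 1.39 to 2.07 in the library labelled WT.

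The lower genes included products of helper effector cells. Ccl1, a chemokine ligand of CCR8, had 7.37 CPM in members against 366 CPM in conventional CD4 cells of the library labelled KO, and 12.5 against 748 CPM in the library labelled WT. Tnfsf8, the CD30 ligand, had 25.3 against 741 CPM in the library labelled KO and 22.5 against 988 CPM in the library labelled WT. Ifng, the cytokine interferon gamma, had 13.7 against 332 CPM in the library labelled KO and 21.2 against 432 CPM in the library labelled WT. For all 3 genes, members lay far below conventional CD4 cells in both libraries.

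TNF-family ligands of T cell help followed. Tnfsf11, which encodes RANKL, had 32.6 against 362 CPM in the library labelled KO and 28.7 against 571 CPM in the library labelled WT. Cd40lg, the signal by which helper cells license B cells and dendritic cells, had 3.16 against 93.2 CPM in the library labelled KO and 8.74 against 107 CPM in the library labelled WT. Members thus had little of the RNA of either ligand. Dlg2 had 3.16 against 163 CPM (KO) and 8.74 against 108 CPM (WT), and Gpm6b 3.16 against 136 CPM (KO) and 35.0 against 234 CPM (WT). Serpinb9b had 0 UMIs in the members labelled KO and 3 in those labelled WT, Exph5 1 UMI in each, and Unc13b 0 UMIs in members of both libraries.

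**Figure D3:**
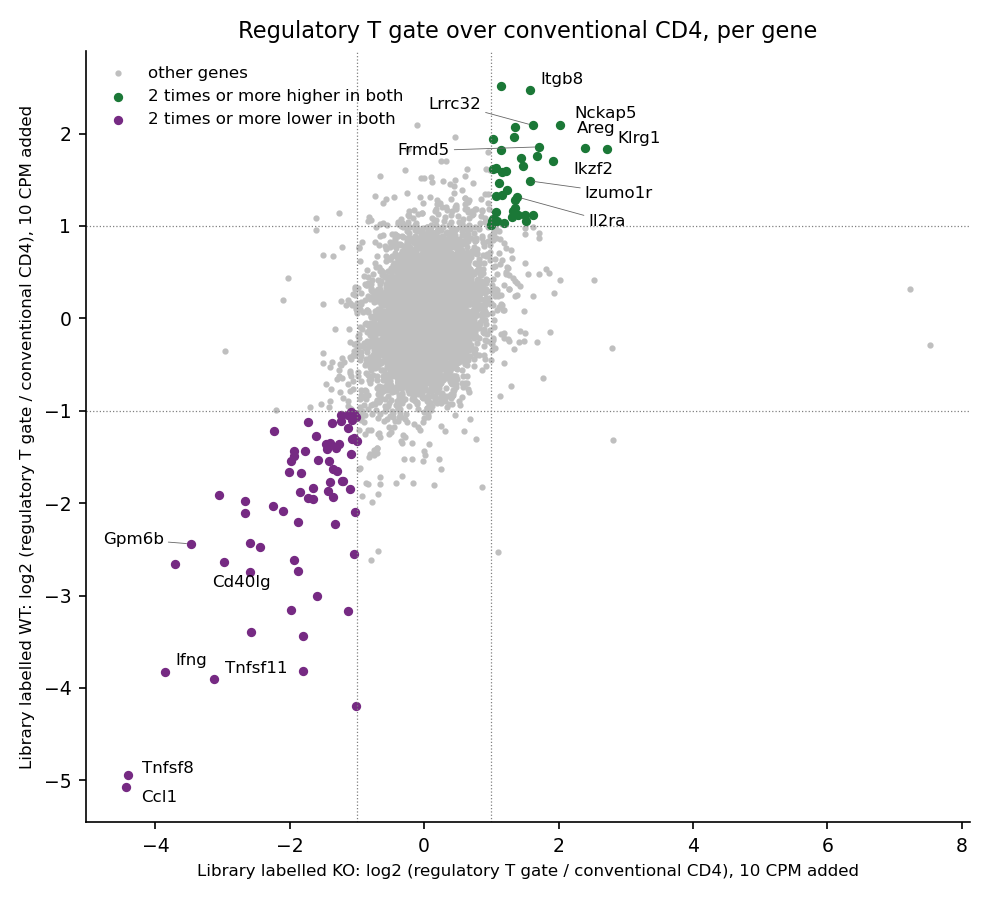
Log2 ratio of members over conventional CD4 cells for each of 7270 genes, after adding 10 CPM, in the library labelled KO (x axis) and the library labelled WT (y axis); dotted lines mark 2 times, green and purple points pass it in both libraries, and Foxp3 and Cd4, which the gates fix, are not coloured. Klrg1, Areg and Itgb8 lie at the upper right and Ccl1, Tnfsf8 and Ifng at the lower left; the 2 grey points farthest to the right are the immunoglobulin genes Igkc and Igha.

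Resting and helper programmes were low or level in members. Of 12 measured genes of resting regulatory T cells, 0 passed the higher threshold over conventional CD4 cells and 3 the lower (Tcf7, Bach2 and Bcl2), and 9 were below conventional CD4 cells in both libraries. Bcl2, the survival protein, had 110 against 366 CPM in the library labelled KO and 67.4 against 291 CPM in the library labelled WT. Of the helper cytokine list, 7 genes were measured and Ifng, Csf2 and Lta passed the lower threshold, while Il4, Il5, Il21, Il3 and Il9 had 0 UMIs in members of both libraries. Il10, an immunosuppressive cytokine, had 136 against 70.9 CPM in the library labelled KO and 98.6 against 34.3 CPM in the library labelled WT, which fell short of the threshold in 1 library. The helper lineage factors passed neither threshold in any of 17 measured genes.

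Genes of dividing cells were higher in members, short of the 2-fold threshold. Of 22 measured cell cycle genes, 19 were above conventional CD4 cells in both libraries, with a median log2 ratio of 0.81 in the library labelled KO and 0.43 in the library labelled WT, although 0 reached 2 times in both. A UMI of Mki67 or Top2a, genes of dividing cells, was present in 30 of the 105 members labelled KO and 53 of the 133 labelled WT; these barcodes were deeper, with medians of 9600 UMIs (KO) and 7216 UMIs (WT), than the others, with 4028 (KO) and 3440.5 (WT). A Mki67 UMI also occurred in 31.3% of macrophage-type barcodes in the library labelled KO and in 21.4% of those in the library labelled WT, so that 1 such UMI does not show that a member divides. Members with a UMI of either gene had 292 CPM of Areg in the library labelled KO and 163 CPM in the library labelled WT, and the others 512 CPM (KO) and 663 CPM (WT). Icos, a costimulatory receptor, followed, with 499 CPM (KO) and 1006 CPM (WT) in members with such a UMI and 1268 CPM (KO) and 1383 CPM (WT) in the others.

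Klrg1 divided the members further. Members with a Klrg1 UMI (59 labelled KO, 67 labelled WT) had 555 CPM of Areg in the library labelled KO and 540 CPM in the library labelled WT, and members without one 210 CPM (KO) and 201 CPM (WT). Il1rl1, the receptor for the alarmin IL-33, had 103 CPM (KO) and 114 CPM (WT) with Klrg1, and 28.3 CPM (KO) and 61.8 CPM (WT) without. Il2ra had 697 CPM (KO) and 969 CPM (WT) with Klrg1, and 383 CPM (KO) and 621 CPM (WT) without. Ikzf2 had 2608 CPM (KO) and 4102 CPM (WT) with Klrg1, and 1833 CPM (KO) and 3038 CPM (WT) without. In both libraries, members with Klrg1 thus had higher CPM of Areg, Il1rl1, Il2ra and Ikzf2. The reverse held for Runx3, at 146 CPM (KO) and 121 CPM (WT) with Klrg1 against 187 CPM (KO) and 219 CPM (WT) without, where the intervals of the library labelled KO overlap. Median depths were 5328 UMIs (KO) and 4330 UMIs (WT) with Klrg1, and 4138.5 (KO) and 3837 (WT) without.

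Leaving out Foxp3 and Cd4, 12 of the 29 higher genes with a listed promoter (41.4%) held a RUNX motif in at least 1 promoter. So did 15 of 54 lower genes (27.8%) and 1434 of 5789 genes of the whole comparison (24.8%). These shares count genes, unlike the share of single promoters given with the sequences. Il2ra and Izumo1r, printed above, are among the 12, with Gzmb, Isg20 and Hopx, while the promoters of the higher genes Areg, Itgb8, Frmd5 and Nckap5 held neither motif. Of the lower genes, Cxcr6, Furin, Lta and Nkg7 are among the 15, while the promoters of Ccl1, Ifng, Tnfsf8 and Tnfsf11 held neither motif in this window. Whether the shares differ was not tested.

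The same sums were compared between the libraries. Of 5541 genes tested, 239 (4.31%) were at least 1.5 times higher and 323 (5.83%) at least 1.5 times lower (10.1% together) in the members labelled KO; over all of these genes the median ratio was -0.08 on the log2 scale. In conventional CD4 cells 260 of 4417 (5.89%) were higher and 246 (5.57%) lower. Fewer cells with a gene and less RNA of it per cell cannot be told apart in these sums. In the members without Csf1r, Adgre1 and Fcgr1 UMIs, 142 of 2908 genes (4.88%) were higher and 308 (10.6%) lower. Single barcodes carried much of some calls: of the 239 higher genes, 69 had at least 25% of their UMIs labelled KO in 1 barcode and 12 had at least 50%.

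The identity genes were counted beside the shares over all genes tested. These were 4.31% higher and 5.83% lower in all members, and 5.89% and 5.57% in conventional CD4 cells. In the members without Csf1r, Adgre1 and Fcgr1 UMIs they were 4.88% and 10.6%. Whether the list's counts differ from these shares was not tested. Of 18 measured genes of the regulatory T identity list, 0 were higher and 5 lower (Ikzf2, Ikzf4, Tnfrsf4, Lrrc32 and Izumo1r), with a median log2 ratio of -0.33 beside -0.08 over all genes. Conventional CD4 cells had 0 higher and 4 lower of 16, with a median of -0.29. In the members without Csf1r, Adgre1 and Fcgr1 UMIs 1 was higher (Nt5e) and 2 lower (Ikzf4 and Cd83), with a median of -0.07. The list's shift between the libraries was thus near that of conventional CD4 cells, and close to 0 in barcodes without macrophage receptor UMIs. Among male-type members its median was 0.07, with Izumo1r at 0.25 and Lrrc32 at 0.11.

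Ikzf2 showed this most plainly. It had 2263 CPM in the members labelled KO and 3587 CPM in those labelled WT (log2 ratio -0.66), but 4073 CPM (KO) and 4189 CPM (WT) without Csf1r, Adgre1 and Fcgr1 UMIs (-0.04), and its ratio was -0.18 among male-type members. Foxp3, of which the gate asks at least 1 UMI whatever the depth, had 287 CPM (KO) and 375 CPM (WT) in all members, and 526 CPM (KO) and 454 CPM (WT) without those UMIs. Ctla4 had 1441 CPM (KO) and 1836 CPM (WT) in all members, and 2561 CPM (KO) and 2212 CPM (WT) without them. Levels of Ikzf2 and Ctla4 were higher in that subset in both libraries, and the log2 ratio of Ctla4 was -0.35 in all members and 0.33 among male-type members. Tnfrsf4, which encodes OX40, had 707 CPM (KO) and 1172 CPM (WT) in all members (-0.72), and 1169 CPM (KO) and 1535 CPM (WT) without those UMIs (-0.39), and was likewise at -0.39 among male-type members. Ikzf4, which encodes EOS, a partner of FOXP3, had 71.6 CPM (KO) and 141 CPM (WT) in all members (-0.89), and 96.2 CPM (KO) and 169 CPM (WT) without them (-0.75). Ikzf4 stayed past 1.5 times in both sets and in all 22 alternatives, at -0.66 to -1.27. Lrrc32 had a log2 ratio of -0.59 in all members and of 0.58 in the subset, at 110 CPM in the subset labelled KO and 70.2 CPM in the subset labelled WT. With every member weighted alike, Foxp3 had a mean of 519 CPM in both libraries, and the log2 ratios were -0.40 for Ikzf2 and -0.06 for Ctla4.

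Calls among suppressive molecules differed between all members and that subset. Of 16 measured, 0 were higher and 3 lower (Lrrc32, Lag3 and Penk) in all members, beside 4.31% higher and 5.83% lower over all genes tested. Without macrophage receptor UMIs 3 were higher (Il10, Nt5e and Tigit) and 0 lower of 16, beside 4.88% and 10.6%. Nt5e, which encodes CD73, the enzyme that makes adenosine, had 335 CPM in the members labelled KO and 226 CPM in those labelled WT, and 629 CPM (KO) and 250 CPM (WT) in the subset (log2 ratio 1.30). Il10 had 136 CPM (KO) and 98.6 CPM (WT) in all members and 268 CPM (KO) and 169 CPM (WT) in the subset (0.64). Tigit, an inhibitory receptor, had 83.2 CPM (KO) and 88.6 CPM (WT) in all members and 189 CPM (KO) and 101 CPM (WT) in the subset (0.84). Nt5e, Il10 and Tigit thus passed 1.5 times in the subset and not in all members, and the difference between the sets was not tested. Among male-type members the list's median was 0.19, against -0.08 in all members, with Il10 at 1.36, Tigit at 0.91 and Nt5e at 0.92.

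The activated programme of tumour regulatory T cells was not tested against the shares over all genes. These were 4.31% higher and 5.83% lower in all members, and 4.88% higher and 10.6% lower in the subset. Of 23 measured genes 1 was higher (Sdc4, a heparan sulfate proteoglycan) and 2 lower (Lag3 and Itgae), with a median log2 ratio of -0.18, and 2 were higher and 1 lower of 22 in the subset. Among male-type members the median was 0.17. Klrg1 had 175 CPM in the members labelled KO and 248 CPM in those labelled WT, Areg 401 CPM (KO) and 376 CPM (WT), and Tnfrsf9 1258 CPM (KO) and 1556 CPM (WT). None of these 3 passed 1.5 times, although Areg was at 0.86 among male-type members. Sdc4 had 233 CPM (KO) and 87.4 CPM (WT), and 134 CPM (KO) and 59.2 CPM (WT) in the subset. Of the T cell receptor and costimulation list, 0 of 18 were higher and 0 lower, and 0 were higher and 2 lower of 18 in the subset. The median of that list was -0.27 in all members and 0.17 among male-type members.

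Transcription factors of helper lineages differed in a few genes. Tbx21, which encodes T-BET, the factor of type 1 responses, had 55.8 CPM (41.8 to 73.0) in the members labelled KO and 129 CPM (105 to 156) in those labelled WT, a log2 ratio of -1.07. In conventional CD4 cells Tbx21 had 124 CPM in the library labelled KO and 107 CPM in the library labelled WT. Without macrophage receptor UMIs the members labelled KO had 10 UMIs of Tbx21 (34.4 CPM) and those labelled WT 80 (175 CPM), a log2 ratio of -2.06. Tbx21 UMIs were found in 16.2% of the members labelled KO and 38.3% of those labelled WT, in 29.9% and 31.1% of conventional CD4 cells, and in 1.26% and 1.73% of macrophage-type barcodes. The lower Tbx21 of the members labelled KO was thus not seen in conventional CD4 cells, although the difference between the classes was not tested. Of the UMIs labelled KO, 39.6% came from 1 barcode. Tbx21 stayed past 1.5 times in all 22 alternatives, at -0.60 to -2.40, and was at -1.14 among male-type members. Gata3, the factor of type 2 responses, had 159 CPM (KO) and 172 CPM (WT). Ahr, a sensor of aromatic ligands, and Zeb2 were higher among the 17 measured factors, and Tbx21 was the 1 lower. The shares over all genes tested were 4.31% higher and 5.83% lower. In the members without macrophage receptor UMIs Zeb2 was at -0.72 and Ahr at 0.02. Ahr was at 0.17 among male-type members and at -0.06 after thinning.

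Homing receptors gave calls in both directions. Of 20 receptors measured, 1 was higher and 6 lower, beside 4.31% higher and 5.83% lower over all genes tested. In the members without macrophage receptor UMIs 4 were higher and 2 lower of 15, beside 4.88% and 10.6%. Cxcr4, the receptor for the stromal chemokine CXCL12, had 171 CPM in the members labelled KO and 64.9 CPM in those labelled WT (log2 ratio 1.27), and 162 CPM (KO) and 57.0 CPM (WT) without macrophage receptor UMIs (1.36). In conventional CD4 cells Cxcr4 differed in the same direction, at 139 CPM (KO) and 62.8 CPM (WT). Ccr4, a receptor of skin and tumour homing, had 14.7 CPM (KO) and 46.2 CPM (WT), a log2 ratio of -1.18, and 20.6 CPM (KO) and 52.6 CPM (WT) in the subset (-1.03). Cxcr6, S1pr4, Itgae and Itgb7 were also among the lower genes. In the subset Itgae was at 0.57 and Itgb7 at 0.11, both reversed, S1pr4 was at -0.07 and Cxcr6 at -0.68, and after thinning Cxcr6 was at 0.26. Among male-type members Itgae was at -0.55, Itgb7 at -0.22 and S1pr4 at -0.50, all short of 1.5 times. Cxcr4 and Ccr4 therefore differed by similar ratios with and without those barcodes, although Ccr4 had only 6 UMIs (KO) and 24 UMIs (WT) in the subset. After thinning Ccr4 was at -0.46, short of 1.5 times. Cxcr4 stayed past 1.5 times in all 22 alternatives, at 0.97 to 1.82.

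The highest ratios were mostly genes of inflammatory myeloid cells. Cxcl3, a neutrophil-attracting chemokine, had 320 CPM in the members labelled KO and 11.2 CPM in those labelled WT (log2 ratio 3.96), and 46.7% of the UMIs labelled KO came from 1 barcode. Without macrophage receptor UMIs it had 6 UMIs in the members labelled KO and 0 in those labelled WT. Thbs1, an adhesive matrix glycoprotein, had 928 CPM (KO) and 155 CPM (WT), a log2 ratio of 2.51, and 7 UMIs (KO) and 6 UMIs (WT) in that subset. Arg1, the arginine-degrading enzyme of suppressive macrophages, had 619 CPM (KO) and 106 CPM (WT), a log2 ratio of 2.44, and 12 UMIs (KO) and 11 UMIs (WT) in the subset. The high values of these genes thus sat in barcodes that also held macrophage receptor UMIs. In conventional CD4 cells the log2 ratios were 2.30 for Cxcl3, 2.52 for Thbs1 and 1.89 for Arg1.

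The remaining genes of the 12 highest ratios were of the same kind or rested on single barcodes. Pf4 (KO 401 and WT 31.2 CPM), Cxcl1 (KO 406 and WT 53.7 CPM), Hmox1 (KO 138 and WT 16.2 CPM), Ptgs2 (KO 307 and WT 56.2 CPM), Slc7a11 (KO 161 and WT 30.0 CPM) and Acod1 (KO 84.2 and WT 12.5 CPM) are expressed by activated myeloid cells, among others. Without macrophage receptor UMIs few UMIs of them were left, with 13 (KO) and 3 (WT) of Pf4, 7 (KO) and 7 (WT) of Cxcl1, 8 (KO) and 3 (WT) of Ptgs2, 1 (KO) and 4 (WT) of Hmox1, 0 (KO) and 1 (WT) of Slc7a11 and 2 (KO) and 3 (WT) of Acod1. S100a8, a neutrophil alarmin, had 110 UMIs in the members labelled KO, 92.7% of them in 1 barcode, and 0 in those labelled WT, at least 30.9-fold higher against a floor of 3 UMIs over all members of a library. Gzmc, the protease granzyme C, had 695 CPM (KO) and 98.6 CPM (WT), with 85.8% of the UMIs labelled KO and 91.1% of those labelled WT in 1 barcode each. Igfbp4 had 59 UMIs, 79.7% in 1 barcode, and 1 UMI, a ratio of 49.8 (8.59 to 1998). For S100a8, Gzmc and Igfbp4 the ratio therefore describes a few barcodes and not the members at large.

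Among the 12 lowest ratios, Lyz2, the macrophage lysozyme, had 501 CPM in the members labelled KO and 2734 CPM in those labelled WT (log2 ratio -2.42), but 265 CPM (KO) and 327 CPM (WT) without macrophage receptor UMIs (-0.29). Conventional CD4 cells had 1220 CPM of Lyz2 in the library labelled KO and 1237 CPM in the library labelled WT. Gypc, a glycophorin of the membrane skeleton, had 11.6 CPM (KO) and 61.2 CPM (WT) in members (-1.72), 10.3 CPM (KO) and 94.3 CPM (WT) in the subset (-2.36) and 29.2 CPM (KO) and 89.4 CPM (WT) in conventional CD4 cells (-1.34). Gypc was thus lower in the library labelled KO in all 3 sets, and in all 22 alternatives its log2 ratio lay between -1.10 and -2.63. Its subset value rests on 3 UMIs (KO) and 43 UMIs (WT).

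A second group of low genes rested on few barcodes. Scin, an actin-severing protein, had 10.5 CPM (KO) and 56.2 CPM (WT), Cbfa2t3 17.9 CPM (KO) and 71.2 CPM (WT), Tbc1d8 24.2 CPM (KO) and 82.4 CPM (WT), Pkib 69.5 CPM (KO) and 195 CPM (WT), and Serpinb6b, a protease inhibitor, 42.1 CPM (KO) and 120 CPM (WT). In the members labelled WT these 5 genes had UMIs in 5.26% to 12.8% of barcodes, and 1 barcode gave 32.7% to 48.9% of each gene's UMIs. In the subset without macrophage receptor UMIs the members labelled KO had 11 or fewer UMIs of each and the members labelled WT 45 to 137. Adar, an RNA-editing enzyme, was spread more evenly, at 20.01 CPM (KO) and 66.2 CPM (WT), a log2 ratio of -1.34, with 9.43% of its UMIs labelled WT in 1 barcode. After thinning it was at 0.02, a value that rests on the few UMIs left of so low a gene. Ly6i and Pde7b had 1 and 4 UMIs in the subset labelled KO and 0 and 2 in the subset labelled WT, too few for a ratio to be read there.

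**Figure D4:**
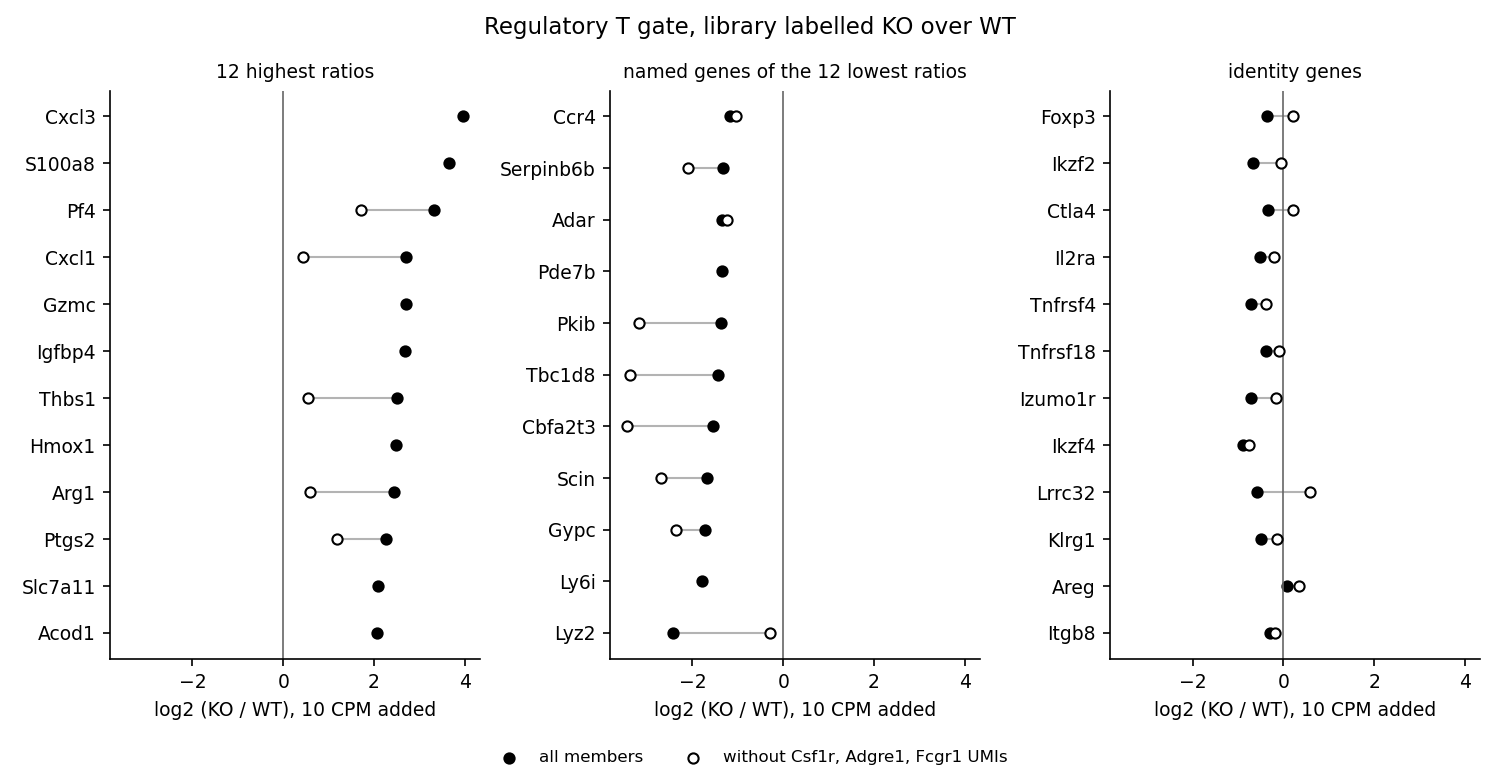
Log2 ratio of the library labelled KO over the library labelled WT, after adding 10 CPM (x axis), for the 12 highest genes, the named genes of the 12 lowest, and 12 identity or activation genes; filled points are all members, open points the members without Csf1r, Adgre1 and Fcgr1 UMIs, drawn where both libraries together hold at least 10 UMIs. S100a8 and Igfbp4 have 0 and 1 UMI in the library labelled WT. The open points of the highest genes that have one lie nearer to 0, and those of the 12 identity or activation genes drawn lie within 1.5 times in either direction except Ikzf4; Nt5e and Cd83 of the identity list, past 1.5 times in the subset, are not drawn.

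The stress, interferon and cell cycle lists each gave calls in 1 direction in all members. Over all genes tested, 4.31% were higher and 5.83% lower in members, and 5.89% and 5.57% in conventional CD4 cells. In the subset without macrophage receptor UMIs these shares were 4.88% and 10.6%. Of 22 immediate early and heat shock genes, 7 were higher (Jun, Ier3, Atf3, Hspa1a, Hspa1b, Dnajb1 and Hsph1) and 0 lower, with a median log2 ratio of 0.34. Conventional CD4 cells had 10 higher and 0 lower of 22, with a median of 0.49, and the subset without macrophage receptor UMIs 2 higher and 1 lower of 17, with a median of 0.18. Among male-type members the list's median was 0.00, with Atf3 at -0.29 and Hspa1a at -0.50. Jun, a stress-responsive transcription factor, had 424 CPM in the members labelled KO and 252 CPM in those labelled WT, a log2 ratio of 0.73 that was 0.37 in the subset and 0.00 among male-type members. Members and conventional CD4 cells as a whole thus differed between the libraries in the same direction.

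Interferon, cell cycle and resting genes were counted beside the same shares, 4.31% higher and 5.83% lower in all members and 4.88% and 10.6% in the subset. Interferon response genes gave lower calls and no higher one in all members. Of 23 measured, 0 were higher and 6 lower (Isg15, Irf1, Stat2, Ifi27l2a, Igtp and Iigp1), with a median of -0.39, against -0.20 in conventional CD4 cells. Irf1, a transcription factor induced by interferon gamma, had 130 CPM (KO) and 231 CPM (WT), with a log2 ratio of -0.79 in all members, -0.88 in the subset and -0.01 among male-type members. Iigp1, a GTPase that disrupts pathogen vacuoles, had 76.9 CPM (KO) and 144 CPM (WT), and 72.2 CPM (KO) and 184 CPM (WT) in the subset. In the subset 1 of 16 was higher and 5 lower, with a median of -0.15. Of 21 cell cycle genes, 0 were higher and 5 lower (Top2a, Stmn1, Mcm4, Mcm6 and Rrm2), with a median of -0.34 in members, -0.42 in conventional CD4 cells and -0.82 over the 9 measured in the subset, and -2.32 over the 9 measured among male-type members. Top2a, the DNA topoisomerase of dividing cells, had 139 CPM (KO) and 215 CPM (WT), and 107 CPM (KO) and 248 CPM (WT) in the subset. Resting genes had 3 higher (Bach2, Bcl2 and Igfbp4) and 1 lower of 10, and Bach2, a factor that holds regulatory T cells in a resting state, had 132 CPM (KO) and 78.7 CPM (WT) in members and 155 CPM (KO) and 68.0 CPM (WT) in the subset. Bcl2 was at 0.63 in all members, 0.03 in the subset and 0.02 among male-type members, and Igfbp4 at 0.44 among male-type members.

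The lists on IL-2 and STAT5, TNF receptors, cytotoxic genes and metabolism were counted beside the shares over all genes tested. These were 4.31% higher and 5.83% lower in all members, and 4.88% higher and 10.6% lower in the subset. In the IL-2 list, 2 of 15 were higher (Socs3 and Bcl2) and 3 lower (Jak3, Cish and Socs1), and 1 was higher and 1 lower of 12 in the subset. In the TNF receptor list, 0 of 17 were higher and 2 lower (Tnfrsf4 and Fas), and 1 was higher and 2 lower of 14 in the subset. In the cytotoxic list, 4 of 12 were higher (Gzmc, Ctsw, Klrc1 and Ccl3) and 2 lower (Ccl5 and Serpinb6b), and 0 were higher and 2 lower of 7 in the subset. Among male-type members Gzmc, Ctsw and Klrc1 were reversed. Among 20 hypoxia and glycolysis genes 1 was higher (Vegfa), and among 8 lipid genes 1 was lower (Srebf2).

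**Figure D5:**
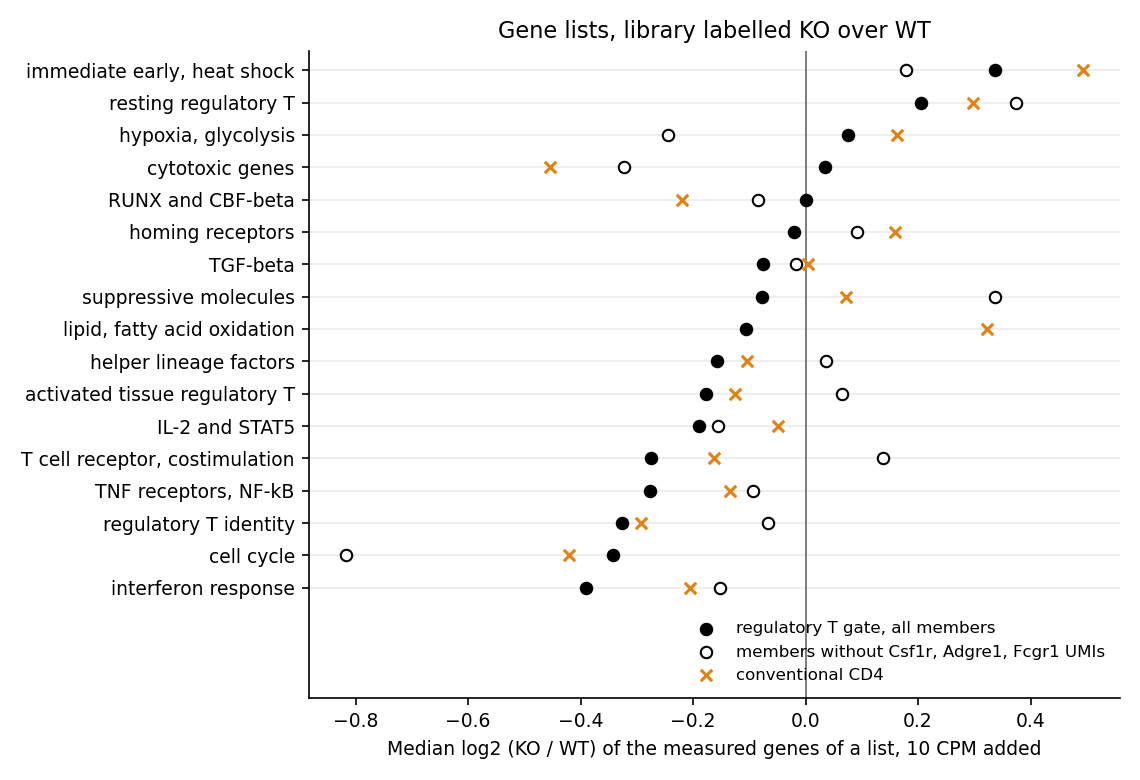
Median log2 ratio of the library labelled KO over the library labelled WT (x axis) over the measured genes of each list (y axis), for all members (filled circles), members without Csf1r, Adgre1 and Fcgr1 UMIs (open circles) and conventional CD4 cells (crosses); a point is drawn for lists with at least 4 measured genes, and lists of cell type and gate markers are left out. Among the lists drawn, immediate early genes are highest in all members at 0.34 and interferon genes lowest at -0.39.

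Frmd5 was the gene of the higher set that differed most in favour of the library labelled KO. It had 471 CPM in the members labelled KO and 212 CPM in those labelled WT (log2 ratio 1.11), 1086 CPM (KO) and 276 CPM (WT) in the subset without macrophage receptor UMIs (1.94) and 136 CPM (KO) and 51.4 CPM (WT) in conventional CD4 cells (1.25). Within the library labelled KO it had 897 CPM in female-type and 364 CPM in male-type members, and male-type members labelled WT had 221 CPM. Nckap5 ran the other way, with 110 CPM (KO) and 245 CPM (WT) in members (-1.09), 186 CPM (KO) and 289 CPM (WT) in the subset (-0.61) and 19.5 CPM (KO) and 49.5 CPM (WT) in conventional CD4 cells (-1.01).

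Male- and female-type members labelled KO differed little in some genes and more in others. Ikzf2 had 2776 CPM in female-type and 2997 CPM in male-type members labelled KO, against 3390 CPM in male-type members labelled WT. Ctla4 had 1885 CPM in female-type and 2083 CPM in male-type members labelled KO. Il2ra had 493 CPM in female-type and 892 CPM in male-type members, and Areg 351 CPM in female-type and 713 CPM in male-type members. Members labelled KO that carried both kinds of UMI had 1256 CPM of Ikzf2, the lowest of the types. The deep barcodes with RNA of both sexes thus had the lowest level of this identity gene, and some ratios between the libraries were nearer to 0 without them: Ikzf2 was at -0.24 in place of -0.66, Tnfrsf4 at -0.33 in place of -0.72, and the median of the identity list at -0.14 in place of -0.33. Without them the median of the interferon list was -0.10 in place of -0.39, but that of the cell cycle list was -0.94 in place of -0.34.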

How the data were processed

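Counts are whole UMIs per gene and barcode as deposited by the authors, 1 matrix for each library; per the file headers they were written by Cell Ranger 8.0.1, and per the submitters' processing notes the build was mm10 and Seurat 3 was used. The chip protocol in the labels and the barcode format of the files do not name the same platform, which was not resolved. The counts were not renormalised by the authors.

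UMIs of gated barcodes were summed per library and class and scaled to CPM with exact Poisson intervals. Shares have exact binomial (Clopper-Pearson) intervals at 95% confidence. Genes entered the comparison of libraries when their summed UMIs reached 50 and 5% or more of members in either library held one; 10 CPM were added before ratios. It was called at 1.5 times between libraries, or 2 times in both libraries over conventional CD4 cells. A count of 0 was bounded by a floor of 3 UMIs. Barcodes were also thinned to 1000 UMIs. Doublets were scored with Scrublet (scanpy 1.11.5); its own threshold marked 0.0362% and 0% of barcodes, so it did not work, and no doublets were removed in the main analysis. Software was Python 3.11.15, numpy 2.4.6, scipy 1.17.1, pandas 2.3.3 and matplotlib 3.10.9. Scripts were tested on simulated data.

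Named genes are the 12 highest and 12 lowest ratios between libraries, the 15 highest and 10 lowest over conventional CD4 cells by the weaker library, the RUNX genes, the gate markers, and list members past the fold or most abundant; mitochondrial, ribosomal, haemoglobin, immunoglobulin, receptor-segment, unnamed and gate genes were left out of the ranking. Other genes named with their values were chosen after those were seen. Lists cover regulatory T identity, activation, resting and suppressive genes, IL-2, T cell receptor, TNF receptor, homing, helper, TGF-beta, RUNX, cytotoxic, cell cycle, immediate early, interferon, hypoxia and lipid genes, and markers of other cell types. Members and lists were chosen with earlier results of these data known. Alternatives changed the gate, depth, doublets, sex type, filters and scaling. A few genes that this rule and these lists take in are counted but not reported here by name.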

Additional observations from a re-analysis of the deposited data

How the results depend on the processing

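No paired analysis was possible because each genotype has 1 library and the replicate numbers are only names; leaving out a replicate was likewise impossible. The ratio of the members' share of T cells stayed above 1 in all 14 alternatives (1.44 to 1.95), and so did that of all barcodes (1.04 to 1.40). Of the 239 genes higher in the members labelled KO, counts moved to 146 with no C1q limit, 159 with female-type barcodes labelled KO against all labelled WT, 142 without Csf1r, Adgre1 and Fcgr1 UMIs (chosen after seeing the data, as was leaving out the deepest member of each library), 511 with a minimum of 20 UMIs, 56 with a minimum of 200 and 60 after thinning. Of the 323 lower genes, counts moved to 139 with no C1q limit, 571 in male-type barcodes, 167 with 20 CPM added, 565 and 58 with the minimums of 20 and 200 UMIs, 203 with the median ratio set to 1 and 60 after thinning. Over conventional CD4 cells, the 40 higher genes became 24 with 20 CPM added and 24 at 200 UMIs, and the 71 lower became 32 at 200 UMIs and 29 after thinning. Fewer genes pass the minimum of 200 UMIs and after thinning, by construction; otherwise the cause was not tested. Log2 ratios of the library labelled KO over the library labelled WT that changed sign, 59 of them over 10 alternatives, were as follows. With C1q under 5, Ly6c2 0.48 was reversed. With cells weighted alike, Ly6c2 0.032 was reversed. In female-type barcodes labelled KO against all labelled WT, Ccl5 0.013, Ctsw -0.23, Gzmc -3.44, Hmox1 -0.43, Hspa1a -0.47, Hspa1b -0.050, Mrc1 -0.40 and Penk 0.57 were reversed. In male-type barcodes, Atf3 -0.29, Ctsw -0.041, Dnajb1 -0.37, Gzmc -2.93, Hspa1a -0.50, Hspa1b -0.27, Hsph1 -0.83, Izumo1r 0.25, Klrc1 -1.06, Lrrc32 0.11 and Runx2 0.072 were reversed. After thinning to 1000 UMIs, Adar 0.015, Ahr -0.063, Cxcr6 0.26, Fcgr1 -1.06, Itgae 0.77, Izumo1r 0.11, Lrrc32 0.017, Ly6c2 0.48 and Mcm6 0.22 were reversed. With no C1q limit, Fcgr1 -0.13, Hmox1 -0.0061 and Mrc1 -0.012 were reversed. Without Csf1r, Adgre1 and Fcgr1 UMIs, Gzmc -1.21, Hmox1 -0.48, Hspa1a -0.071, Ifi27l2a 0.084, Itgae 0.57, Itgb7 0.11, Lrrc32 0.58, Ly6c2 3.18, Ly6i 0.43, Pde7b 0.72, Penk 0.32, Slc7a11 -0.29 and Zeb2 -0.72 were reversed. Some of these rest on too few UMIs to be read: Gzmc had 0 (KO) and 6 (WT) there, Hmox1 1 and 4, Ly6i 1 and 0, Pde7b 4 and 2, and Slc7a11 0 and 1. Without Mki67 or Top2a UMIs, Ctsw -0.32, Gzmc -0.84, Hspa1b -0.045, Klrc1 -0.20, Rrm2 0.042 and Stmn1 0.31 were reversed. Without barcodes of both sex types, Ctsw -0.090, Gzmc -3.19, Hspa1a -0.53, Hspa1b -0.16, Hsph1 -0.30 and Klrc1 -0.047 were reversed. Without the highest 5% of Scrublet scores, Ly6c2 0.46 was reversed. The remaining log2 ratios of named genes between libraries were the same in 5472 cases, weaker in 270, stronger in 355 and moved in 114. Depth limits genes with few UMIs most.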
